A study of Mus musculus with 8 samples.

Results

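The 500-kb bins of mouse chromosome 3 were taken from whole-genome Hi-C contact maps of mouse embryonic stem cells (mESCs), as all pairs in which both bins carry numbers from 760 to 1079 of the mm9 build. These are 320 of the 5322 bins in the maps. Of the 320 bins, 314 were kept, and the 6 at the start of the chromosome were left out because a sample covered them at less than 0.1 of the chromosome's median. The cells had been nucleofected with an antisense morpholino oligo (AMO) at 5 nmol per 100 μl. Nucleofected cells were sorted at 12 h and harvested at 36 h. The treated group received L1 AMO, directed against the RNA of the LINE-1 (L1) retrotransposon, and the control group received a scramble oligo (SCR AMO). Each group had 2 samples, called replicates 1 and 2. All 4 samples went through the nucleofection and the sort, and the maps average over all cells that passed it. The labels do not name the mESC line, and the amount of L1 RNA left in the cells cannot be read from contact maps.

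L1 and B1 are among the most abundant repeats of the mouse genome. L1 elements are long, AT-rich and frequent in gene-poor regions, and B1 elements are short, GC-rich and frequent near active genes. In Hi-C, chromatin separates at the megabase scale into an A compartment, open and gene-rich, and a B compartment, closed, late-replicating and often held at the nuclear lamina or the nucleolus. Bins of a compartment contact each other more often than their distance would give (homotypic contacts) and bins of the other compartment less often (heterotypic contacts). The comparison asked how the contacts of the A and B stretches of a gene-poor chromosome differed when L1 RNA was targeted.

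The oligos are shown because they are what separates the groups, each written 5′ to 3′ in lower case.
L1 AMO: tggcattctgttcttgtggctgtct
SCR AMO: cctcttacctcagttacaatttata
Both are 25 bases long. L1 AMO holds 12 G or C bases (48%) and SCR AMO holds 8 (32%). The longest run of bases that they share is 4, on the same or the opposite strand, and 6 of their positions carry the same base.

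Chromosome 3 carries Sox2, a pluripotency transcription factor of mESCs, Fgf2, a growth factor, Ccna2, which encodes cyclin A2, Lef1, a Wnt pathway transcription factor, and Flg of the epidermal differentiation complex. It also carries Pcdh10 and Pcdh18, which encode protocadherins, and the Adh1, Gbp2 and Amy1 genes. In the RefSeq annotation of GRCm38 it holds 983 protein-coding genes, or 3.07 per 500 kb. This density was lower on 3 of the other autosomes and higher on 15. Positions in that annotation belong to another build than the maps, so genes were not placed in blocks.

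Depth differed between the samples. The maps held 112381720 contacts in SCR AMO replicate 1, 22252054 in SCR AMO replicate 2, 58030519 in L1 AMO replicate 1 and 46263849 in L1 AMO replicate 2. Within chromosome 3 they held 5395426, 1061086, 2850077 and 2347292 contacts. For bin pairs of the chromosome over 40 Mb apart the median count was 11 in SCR AMO replicate 1, 2 in SCR AMO replicate 2, and 5 and 4 in the L1 AMO samples, so values are given for sums over blocks. The totals of both SCR AMO maps depart from the study's own summary of its libraries, which the L1 AMO totals nearly match. How the maps were made therefore cannot be told apart from the oligo in any difference between the groups. With 2 samples against 2, the smallest p of an exact two-sided permutation test is 0.333, and every measure in which the groups did not overlap has this p.

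The A and B stretches were found from eigenvector 1 of the chromosome's observed/expected map, averaged over the 4 samples so that neither group set the labels. The observed/expected value is the contact frequency of a bin pair over the mean of all pairs at the same distance, after iterative correction (balancing) of the genome to equal coverage per bin. Bins with a positive eigenvector were called A, the side that contacted B1-rich bins of chromosome 1 more, and those with a negative one B. Chromosome 3 had 122 A bins and 192 B bins, so 61.1% of it lay in B. That share was lower on 15 of the other autosomes and higher on 3, with a range over the 19 autosomes of 50.0% to 64.9%. B made up 66.2% of the bins before 80 Mb and 56.3% of those after.

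Neighbouring bins of one sign formed 61 blocks, 30 A and 31 B, numbered by type from the start of the chromosome. The B blocks had a median length of 2 Mb and the A blocks of 1.5 Mb. The longest B block was B9, at 41.5 to 51 Mb, and the other long ones were B14 (70 to 79 Mb), B2 (10.5 to 18 Mb) and B20 (109 to 115.5 Mb). The longest A block was A15, at 82.5 to 90.5 Mb, followed by A18 (100 to 105.5 Mb), A7 (33.5 to 38 Mb) and A9 (51 to 55.5 Mb). A17 (94 to 98.5 Mb) is as long as A7 and A9, 4.5 Mb, and ties were settled by position, so A17 is not among the 4 A blocks whose pairs are described. Short blocks were more often A, with 10 A and 4 B blocks of 1 bin.

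Contacts with another chromosome, which enter the eigenvector only through its sign and the balancing, separated the same blocks. For each bin the contacts with 143 B1-rich bins of chromosome 1 were set against those with 240 L1-rich bins, as a log2 contrast. Over the 314 bins, Pearson's r between this contrast and eigenvector 1 was 0.916, where both come from the same libraries and neighbouring bins are not independent. The contrast was above 0 in 29 of the 30 A blocks and below 0 in 24 of the 31 B blocks. The highest block means were 0.846 in A17 and 0.782 in A15. The B block at 55.5 to 57 Mb, B10, had a contrast of 0.149 and a mean eigenvector 1 of -0.56, so its contacts with chromosome 1 went against its label. Since the contrast set the sign of the eigenvector, only the size of the correlation is a measurement.

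The positions of the blocks were nearly the same in both groups. Eigenvector 1 computed in each sample alone correlated at 0.984 between the SCR AMO samples, at 0.984 between the L1 AMO samples and at 0.962 to 0.975 across groups. In 281 of the 314 bins all 4 samples gave one sign. Of the 33 others, 9 bins (2.87%) were A in both SCR AMO samples and B in both L1 AMO samples, against 5.28% of the bins of all chromosomes. No bin went the other way, against 0.0393% of all bins. The 9 bins lay at block edges or in small blocks, 6 of them in blocks of 1 to 3 bins. Their eigenvector 1 ranged from 0.000244 to 0.449 with SCR AMO and from -0.746 to -0.0694 with L1 AMO, on a scale on which the mean of a block reached 1.24 in A17. One of them is the whole block B7 at 33 to 33.5 Mb, with 0.346 and 0.229 under SCR AMO and -0.323 and -0.534 under L1 AMO.

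Contacts of chromosome 3 were redistributed over distance. Of the balanced contact frequency, 10.8% and 10.0% spanned 2 to 10 Mb in SCR AMO, against 12.6% and 12.5% in L1 AMO. Contacts of 10 to 40 Mb made up 12.9% and 12.3% in SCR AMO and 12.0% and 12.0% in L1 AMO. Contacts beyond 40 Mb made up 7.29% and 6.57% in SCR AMO and 5.96% and 5.54% in L1 AMO. The groups did not overlap in these 3 ranges. Contacts of up to 2 Mb, those inside a bin included, made up 68.9% and 71.1% in SCR AMO and 69.4% and 70.0% in L1 AMO, and overlapped.

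In finer bands the frequency per bin pair was lower in L1 AMO between neighbouring bins, higher from 1 to 10 Mb and lower beyond 10 Mb. In ppm (the chromosome's contacts scaled to a sum of 1e+06), pairs over 4 and up to 6 Mb apart had 21.0 and 19.3 in SCR AMO and 25.4 and 25.3 in L1 AMO, a log2 ratio of 0.33. Pairs over 120 Mb apart had 0.675 and 0.602 in SCR AMO and 0.513 and 0.462 in L1 AMO, a log2 ratio of -0.39. Neighbouring bins had 654.9 and 641.7 ppm in SCR AMO and 595.2 and 580.1 ppm in L1 AMO, a log2 ratio of -0.14. The contrast between the middle and the long range is thus larger than that between the samples of a group.

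**Figure D1:**
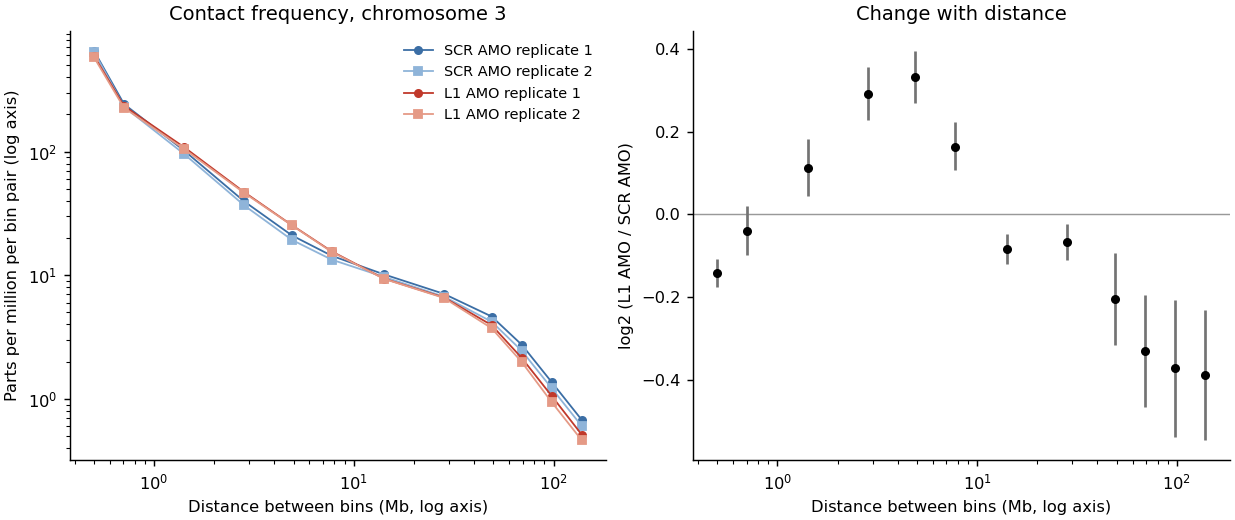
Balanced contact frequency of chromosome 3 against the distance between bins, on log axes, for the 4 samples (left), and the log2 ratio of the group means with the range over the 4 pairs of one L1 AMO and one SCR AMO sample as bars (right). The ratio is at its highest, 0.33, at 4 to 6 Mb and at its lowest, -0.39, beyond 120 Mb.

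Compartment strength of chromosome 3 was lower with L1 AMO. It averages the A-A and B-B observed/expected values and divides them by the A-B value, for bins in the outer 20% of the eigenvector on either side. The SCR AMO samples had 2.64 and 2.74 (2.69 ± 0.0747, SD, n = 2), whereas 2.07 and 2.00 were found with L1 AMO (2.03 ± 0.0467, SD, n = 2), a difference of -0.654. The groups were apart by many times their spread (exact permutation p = 0.333, the smallest possible). With the outer 10% the difference was -1.22, with 50% it was -0.140, and with bins ranked by their contacts with chromosome 1 it was -0.314, so its size, but not its direction, depended on which bins were compared.

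The A-A and the A-B values carried most of this difference. A-A contacts stood at 1.43 and 1.43 in SCR AMO and 1.30 and 1.25 in L1 AMO. A-B contacts stood at 0.506 and 0.489 in SCR AMO and 0.601 and 0.612 in L1 AMO, still well below 1. B-B contacts stood at 1.24 and 1.25 in SCR AMO and 1.19 and 1.20 in L1 AMO, the smallest of the differences. The B-B difference of -0.0512 depended on the balancing. It became 0.0137 without balancing and -0.00608 when chromosome 3 was balanced alone, with overlapping groups in both cases. The A-A and A-B differences kept their direction without overlap in both.

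Over all bins of each type the same differences varied with distance. From 2 to 10 Mb the mean A-A value was 1.17 and 1.18 in SCR AMO and 1.04 and 1.02 in L1 AMO, and from 10 to 40 Mb it was 1.31 and 1.32 against 1.16 and 1.13. These are changes of -12.5% and -12.9%, which narrowed to -9.10% from 40 to 80 Mb and -6.06% beyond 80 Mb. Up to 2 Mb, in contrast, it was 0.844 and 0.840 in SCR AMO and 0.900 and 0.905 in L1 AMO, so A bins close to each other contacted more in L1 AMO relative to their distance. The A-B value was 7.29% higher from 2 to 10 Mb, 7.19% higher from 10 to 40 Mb and 3.90% higher from 40 to 80 Mb, and overlapped beyond 80 Mb.

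B-B contacts took another course. Up to 2 Mb their value was 1.24 and 1.24 in SCR AMO and 1.19 and 1.18 in L1 AMO. From 10 to 40 Mb it was 1.17 and 1.17 in SCR AMO and 1.16 and 1.17 in L1 AMO, a difference of -0.350%. Beyond 80 Mb it was 1.03 and 1.02 in SCR AMO and 1.04 and 1.06 in L1 AMO, higher by 2.61%. Contacts between B bins were thus lower in L1 AMO at short range and slightly higher at the longest range, relative to all pairs of their distance.

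**Figure D2:**
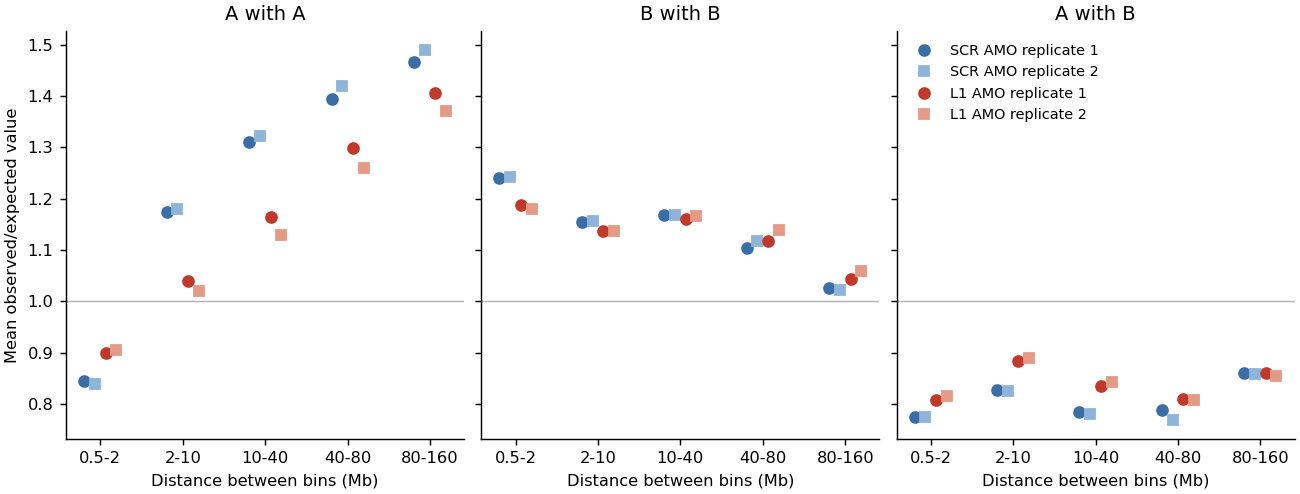
Mean observed/expected value of A-A, B-B and A-B bin pairs of chromosome 3 (vertical axis, 1 is the mean of all pairs at a distance) in 5 ranges of distance, 1 point per sample. The L1 AMO samples lie below the SCR AMO samples for A-A from 2 Mb on and above them for A-B up to 80 Mb, while the B-B values differ little beyond 2 Mb.

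Contacts inside a block gave the near side of this pattern. Of the 20 A blocks with more than 1 bin, 16 had a higher inside value in both L1 AMO samples, and 1 had a lower one. Over all chromosomes 72.1% of such A blocks were higher and 11.9% lower. The exception was A9, with 1.00 and 1.01 in SCR AMO and 0.936 and 0.921 in L1 AMO. A17 had 0.563 and 0.550 in SCR AMO and 0.650 and 0.665 in L1 AMO. Of the 27 B blocks with more than 1 bin, 19 had a lower inside value and 1 a higher one, against 75.5% and 6.37% over all chromosomes. B8, at 38 to 40.5 Mb, had 1.57 and 1.60 in SCR AMO and 1.41 and 1.42 in L1 AMO, and the long B9 had 1.34 and 1.35 against 1.29 and 1.28. No test of these counts against the rest of the genome was made.

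Across block boundaries, contacts between direct neighbours were more often higher than lower in L1 AMO. Of the 60 pairs of adjacent A and B blocks, 33 had a higher observed/expected value in both L1 AMO samples and 7 a lower one. Their median was 0.823 and 0.830 in SCR AMO and 0.867 and 0.868 in L1 AMO. Of the 29 pairs of A blocks separated by 1 B block, 23 had a lower value and 3 a higher one, with medians of 1.24 and 1.24 in SCR AMO and 1.15 and 1.08 in L1 AMO. Of the 30 pairs of B blocks separated by 1 A block, 12 were lower, 6 were higher and 12 overlapped. These B blocks showed no common direction, while A blocks on either side of a B block mostly contacted less relative to their distance. As frequencies, A-A bin pairs over 2 and up to 10 Mb apart were higher in L1 AMO. They had 25.7 and 23.8 ppm in SCR AMO and 27.0 and 26.2 ppm in L1 AMO. Shares over all chromosomes were not computed for such neighbouring blocks, so these counts are not set apart from the rest of the genome.

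Among all 1830 pairs of different blocks, 229 of the 435 A-A pairs were lower in both L1 AMO samples and 35 were higher. These are 52.6% and 8.05%, against 54.2% and 8.47% over all chromosomes. Of the 930 A-B pairs 264 were higher and 174 lower, or 28.4% and 18.7%, against 33% and 20.6%. Of the 465 B-B pairs 143 were higher and 111 lower, or 30.8% and 23.9%, against 37.7% and 18.5%. In these counts the A-A pairs of chromosome 3 stood near the rest of the genome, and its B-B pairs were less often higher and more often lower than elsewhere, a difference that was not tested.

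**Figure D3:**
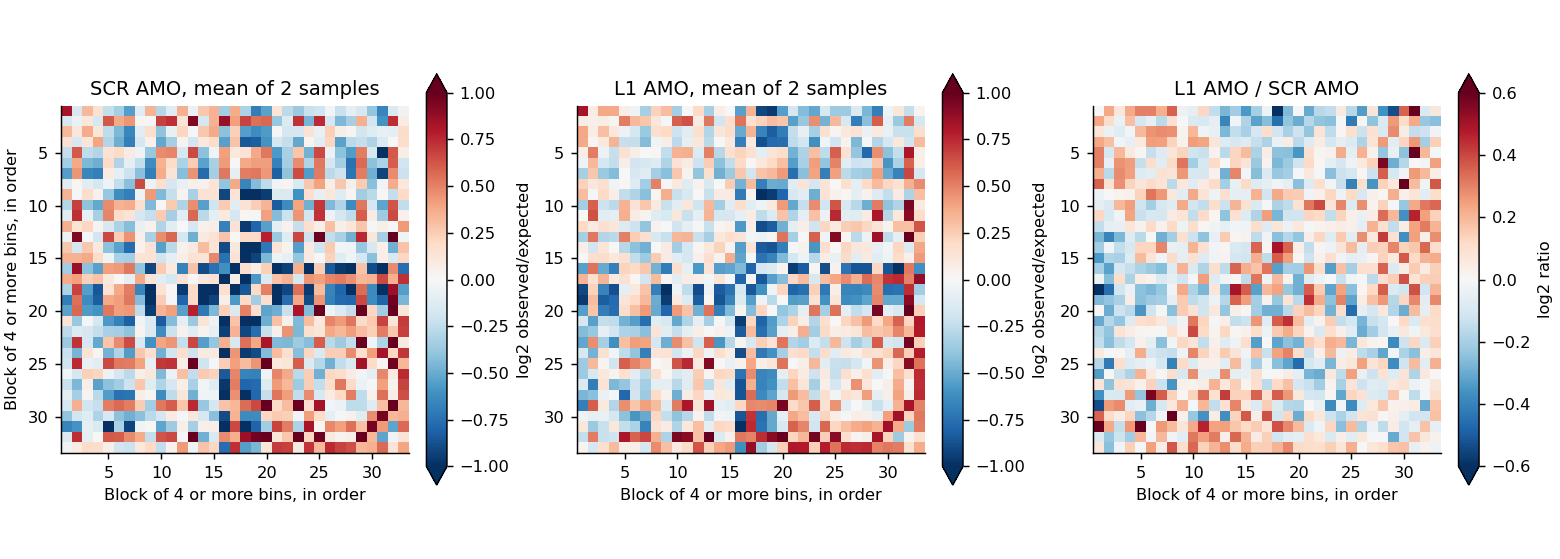
Mean observed/expected value (log2) between the 33 blocks of chromosome 3 with 4 or more bins, in their order along the chromosome, in SCR AMO (left) and L1 AMO (middle), and their ratio, L1 AMO over SCR AMO (log2, right). The checkerboard of A and B blocks is present in both groups and is paler in L1 AMO.

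The long blocks show the pattern pair by pair. Among the 4 long A blocks A7, A9, A15 and A18, all 6 A-A pairs were lower in both L1 AMO samples. Over all chromosomes, with blocks of any length, 54.2% of A-A pairs were lower. The pair A7-A15, 50.75 Mb apart on average, had an observed/expected value of 1.44 and 1.45 in SCR AMO and 1.25 and 1.17 in L1 AMO, from 5791, 1021, 2148 and 1473 contacts in the order SCR AMO replicates 1 and 2 and L1 AMO replicates 1 and 2. A15-A18 moved from above 1 to below it, with 1.04 and 1.05 in SCR AMO and 0.917 and 0.898 in L1 AMO. A9-A15 showed the smallest difference of the 6, with 1.22 and 1.18 in SCR AMO and 1.14 and 1.12 in L1 AMO.

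Of the 16 A-B pairs among the long blocks, 13 were higher in both L1 AMO samples. With blocks of any length, 33% of the A-B pairs of all chromosomes were higher and 20.6% lower. A18-B20, whose blocks lie 9.5 Mb apart, had the largest difference, with 0.508 and 0.492 in SCR AMO and 0.655 and 0.701 in L1 AMO. B14-A18 had 0.445 and 0.418 in SCR AMO and 0.546 and 0.556 in L1 AMO, and B14-A15 had 0.539 and 0.534 in SCR AMO and 0.675 and 0.693 in L1 AMO. The 2 pairs that were lower were B2-A15 and B2-A18, which join B2, at 10.5 to 18 Mb, to blocks at 82.5 to 90.5 Mb and 100 to 105.5 Mb. B2-A18, 88.5 Mb apart, had 0.666 and 0.630 in SCR AMO and 0.575 and 0.558 in L1 AMO. A7-B20 overlapped.

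Of the 6 B-B pairs, 4 were lower in both L1 AMO samples, 1 was higher and 1 overlapped. With blocks of any length, 18.5% of the B-B pairs of all chromosomes were lower and 37.7% higher. The long blocks were not tested against these shares. B2-B20, 98 Mb apart, had 0.982 and 1.00 in SCR AMO and 0.841 and 0.851 in L1 AMO. B14-B20 had 1.08 and 1.11 in SCR AMO and 0.937 and 1.03 in L1 AMO. B2-B9 was the higher pair, with 1.12 and 1.14 in SCR AMO and 1.15 and 1.14 in L1 AMO, values that almost touch. As frequencies in ppm, which hold the loss of long-range contacts too, the log2 change averaged -0.34 over the A-A pairs, -0.29 over the B-B pairs and 0.09 over the A-B pairs, each without overlap of the groups. The A-B mean was 0.149 without SCR AMO replicate 1 and 0.0363 without SCR AMO replicate 2.

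**Figure D4:**
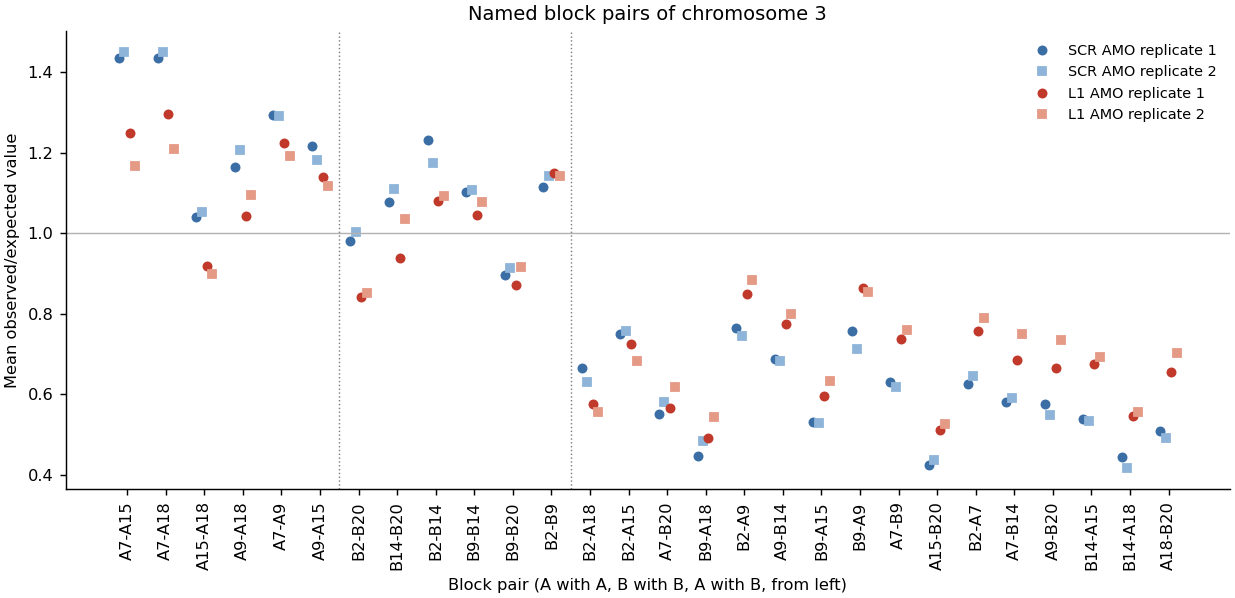
Mean observed/expected value (vertical axis) of the 28 pairs among the 4 longest A blocks (ties by position) and the 4 longest B blocks of chromosome 3, 1 point per sample, with A-A, B-B and A-B pairs from left to right and ordered by their change inside each. All 6 A-A pairs are lower in both L1 AMO samples, and 13 of the 16 A-B pairs are higher. Over all chromosomes, with blocks of any length, the shares are 54.2% and 33%.

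The raw counts went into edgeR's quasi-likelihood test over the block pairs of all chromosomes, at a false discovery rate of 0.05. Of the 1830 pairs of chromosome 3, 1749 had at least 10 counts on average and were tested. Scaled only to library size (TMM), 539 were called. B-B pairs rose 71 times and fell 40 times of 454, A-A pairs rose 12 times and fell 181 times of 410, and A-B pairs rose 119 times and fell 116 times of 885. Of all block pairs in the genome 21.5% rose and 21.7% fell. By type, A-A pairs rose in 2.93% and fell in 44.1% of cases on chromosome 3, against 8.94% and 47.0% over all chromosomes. B-B pairs rose in 15.6% and fell in 8.81%, against 29.3% and 7.96%. A-B pairs rose in 13.4% and fell in 13.1%, against 23.6% and 16.4%. These differences were not tested. Chromosome 3 had more blocks, 61, than any other autosome or X. The counts per block pair were not matched between chromosomes, here or in the fits below. The split followed distance: 45 of the 51 B-B pairs and 81 of the 132 A-B pairs up to 10 Mb apart rose and none fell. These are 88.2% and 61.4%, against 87.1% and 67.1% of such pairs over all chromosomes. Among the 49 A-A pairs up to 10 Mb apart, 11 (22.4%) rose and 2 (4.08%) fell, against 34.0% and 9.89% over all chromosomes. Of the 222 A-A pairs beyond 40 Mb, 103 (46.4%) fell and 1 rose, against 54.8% fallen over all chromosomes. Rises made up 37.5% of the calls, 14.6% of 718 calls without TMM, where the median of all block pairs lay at a log2 ratio of -0.16, and 60.1% of 228 calls by DESeq2 with its own size factors. Without SCR AMO replicate 1, the deepest sample, 219 pairs were called.

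With the expected count at the same distances as an offset, 332 pairs of chromosome 3 were called. A-A pairs fell 156 times and rose 1 time, B-B pairs rose 60 times and fell 11 times, and A-B pairs rose 67 times and fell 37 times. In the whole genome 13.5% of block pairs rose and 13.9% fell in this fit. The A-A falls covered all distances, with 30 of 49 pairs up to 10 Mb, 84 of 139 from 10 to 40 Mb and 42 of 222 beyond. These are 61.2%, 60.4% and 18.9%, against 66.9%, 57.0% and 25.7% of the A-A pairs of all chromosomes. B-B pairs rose in 13.2% of cases on chromosome 3 and in 25.6% over all chromosomes. A-B pairs rose in 7.57% and 13.5%. These differences were not tested. Without SCR AMO replicate 1 the fit called 107 pairs, and DESeq2 called 102.

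Raw counts also hold each bin's coverage. A bins were covered 1.30 and 1.26 times as deeply as B bins in SCR AMO, and 1.23 and 1.15 times as deeply in L1 AMO. With the balancing factors of each sample added to the offset, a fit chosen after the data were seen, 340 pairs were called. A-A pairs fell 120 times and rose 7 times, A-B pairs rose 106 times and fell 33 times, and B-B pairs rose 42 times and fell 32 times. The genome-wide shares were 13.2% risen and 13.1% fallen. By type, A-A pairs fell in 29.3% of cases on chromosome 3, against 33.9% over all chromosomes. A-B pairs rose in 12.0% and fell in 3.73%, against 16.9% and 6.12%. B-B pairs rose in 9.25% and fell in 7.05%, against 16.8% and 7.19%. These differences were not tested. Of the calls, 268 were shared by both fits with an offset, all with one direction. On chromosome 3 the fall of A-A pairs was thus called with and without the balancing factors. The excess of risen over fallen A-B pairs grew with these factors, and the B-B pairs came close to an even split.

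In the fit with the distance offset the pairs of long blocks were called as follows. Of the 6 A-A pairs 5 fell and none rose, of the 16 A-B pairs 13 rose and none fell, and of the 6 B-B pairs 1 rose and none fell. The B-B pairs that were lower by the balanced observed/expected value, and B2-A15 and B2-A18, were thus not called in this fit of raw counts, and B9-B14 had a log2 ratio of 0.02 in it. Over all chromosomes, with blocks of any length, 42.1% of A-A pairs fell in this fit. There 13.5% of A-B pairs and 25.6% of B-B pairs rose. A18-B20 rose by a log2 ratio of 0.43 (edgeR adjusted p = 3.11e-12), from 5327, 933, 3846 and 3313 contacts. B14-A15 rose by 0.33 (edgeR adjusted p = 2.05e-10). A7-A15 changed by -0.33 (edgeR adjusted p = 2.88e-07) and A15-A18 by -0.32 (edgeR adjusted p = 1.32e-09). B2-B9 rose by 0.12 (edgeR adjusted p = 0.0231), and with the balancing factors its log2 ratio was 0.03 (edgeR adjusted p = 0.408). B14-B20 was at -0.08 (edgeR adjusted p = 0.243), and with the balancing factors it fell, at -0.14 (edgeR adjusted p = 0.000126). With these factors B2-B14 (edgeR adjusted p = 2.88e-05), B2-B20 (edgeR adjusted p = 0.0259) and B2-A18 (edgeR adjusted p = 0.0428) fell too. In that fit 3 of the 6 B-B pairs fell and none rose, and all 6 A-A pairs fell. Of the 16 A-B pairs 13 rose and 1 fell.

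The pairs with the largest called changes relative to distance joined small blocks with few contacts. A12-A26, between 67 to 67.5 Mb and 137.5 to 138.5 Mb, had 30, 6, 30 and 21 contacts in the same order of samples and rose by a log2 ratio of 1.22 (edgeR adjusted p = 0.00137), against the direction of most A-A pairs. B7-B22 rose by 0.85 on 37, 4, 25 and 19 contacts, and A12-B30 rose by 0.84 on 34, 7, 28 and 17. The largest falls were those of B7-A28, with a log2 ratio of -1.13 on 43, 6, 7 and 6 contacts, B6-A16, at -1.02 on 42, 11, 9 and 7, and A25-A29, at -0.91 on 109, 18, 30 and 20. Block B7, A by its eigenvector in the SCR AMO samples and B in the L1 AMO samples, gained with a B block and lost with an A block. The eigenvector was computed from the same contacts and these pairs were picked for their large changes, so this restates its change of sign. These 6 pairs kept their calls when the balancing factors were added, B7-B22 narrowly (edgeR adjusted p = 0.0478). Scaled only to library size, B7-B22 (edgeR adjusted p = 0.166) and A12-B30 (edgeR adjusted p = 0.144) were not called.

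The long-range homotypic share sums this up for each block, as the percentage of its contacts beyond 10 Mb made with blocks of its own type. For all A bins it was 52.0% and 52.5% in SCR AMO and 48.1% and 47.2% in L1 AMO, a difference of -4.64 percentage points. For all B bins it was 67.6% and 67.9% in SCR AMO and 66.4% and 66.5% in L1 AMO, a difference of -1.28 points. The A difference held its direction without overlap under every alternative run, and that of B became -0.285 points, with overlap, without balancing.

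Nearly all A blocks showed it. The share was lower in both L1 AMO samples in 29 of the 30 A blocks, against 91.4% over all chromosomes, and higher in none, against 1.07%. The largest differences were in A17, with 54.0% and 54.3% in SCR AMO and 47.9% and 46.6% in L1 AMO, A18, with 55.2% and 55.8% against 49.6% and 48.6%, and A7, with 50.2% and 49.5% against 44.6% and 42.9%. Over the 30 A blocks Pearson's r of the difference with block length was -0.62 (Spearman's rho -0.57), and with the block's start it was 0.00397. Long A blocks tended to differ more, with exceptions such as A9, at -3.82 percentage points, and the 2-Mb block A5, at -5.44. Blocks of one chromosome share contacts and libraries, so these correlations are descriptions.

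B blocks differed among themselves. The share was lower in both L1 AMO samples in 14 of the 31 B blocks, higher in 10 and overlapping in 7, against 38.1% lower and 40.7% higher over all chromosomes. The higher ones include B7, B12, B13 and B17, whose mean eigenvector 1 was positive in both SCR AMO samples and negative in both L1 AMO samples. For these blocks the higher share and the change of sign come from the same contacts, so the share restates it. Of the 4 longest B blocks, 3 had clear differences, with 67.4% and 67.8% in SCR AMO and 63.6% and 63.2% in L1 AMO in B14, 69.4% and 69.4% against 66.4% and 66.4% in B20, and 68.5% and 68.9% against 66.4% and 66.4% in B9. The other one, B2, was lower by less, with 65.6% and 65.4% in SCR AMO and 65.0% and 64.5% in L1 AMO, and B31 (6 Mb) and B1 (4.5 Mb) overlapped. B29, at 146.5 to 148.5 Mb, was higher, with 67.7% and 66.1% in SCR AMO and 70.2% and 70.2% in L1 AMO, and so was B8, with 63.3% and 64.0% against 65.4% and 65.6%. B16, at 90.5 to 93 Mb, overlapped. Over the 31 B blocks the difference had a Pearson's r of 0.87 with the block's mean eigenvector 1 (Spearman's rho 0.88) and of 0.66 with its contrast in contacts with chromosome 1. Blocks with the most negative eigenvector tended to be the lower ones, and those nearer 0 the higher ones. Exceptions were B29, higher at a mean eigenvector 1 of -0.72, and B16, overlapping at -1.03. The eigenvector was computed from the same maps, so the relation is a description.

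**Figure D5:**
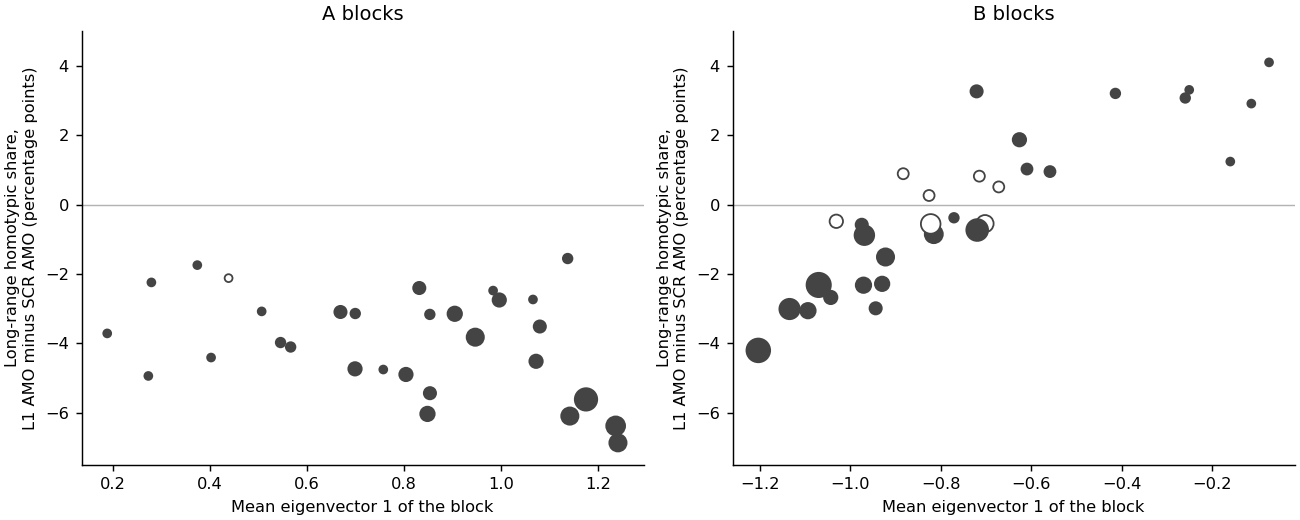
Difference in the long-range homotypic share between L1 AMO and SCR AMO (percentage points, means of 2 samples) against the mean eigenvector 1 of each A block (left) and B block (right) of chromosome 3. Point size grows with the number of bins, and open circles are blocks in which the samples of the groups overlap. All A blocks lie below 0, and B blocks run from -4.20 in B14 to 4.10 in B7. In the SCR AMO samples alone B7 had a positive eigenvector 1.

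Chromosome 3 also made fewer of its contacts with other chromosomes in the L1 AMO maps. For A bins the share of raw contacts with other chromosomes was 25.8% and 26.8% in SCR AMO and 18.3% and 16.5% in L1 AMO. For B bins it was 20.3% and 22.1% in SCR AMO and 15.8% and 14.9% in L1 AMO. A bins had the larger share and the larger difference, at -8.93 against -5.86 percentage points. The whole maps moved alike, with 22.3% and 22.8% of contacts between chromosomes in SCR AMO and 15.8% and 14.2% in L1 AMO. The cause of this difference was not tested.

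Contacts with chromosome 1 differed in which of its regions were met. The mean log2 contrast between B1-rich and L1-rich bins of chromosome 1 was 0.666 and 0.543 over the A bins of chromosome 3 in SCR AMO and 0.481 and 0.427 in L1 AMO. Over its B bins it was -0.152 and -0.133 in SCR AMO and -0.284 and -0.271 in L1 AMO. Both types were lower in L1 AMO without overlap, by -0.150 and -0.135, a value computed after the data were seen. In A15 it was 0.876 and 0.772 in SCR AMO and 0.751 and 0.694 in L1 AMO, and in B2 it was -0.241 and -0.109 in SCR AMO and -0.459 and -0.409 in L1 AMO. The distance between the types, as the mean over A bins minus that over B bins, was 0.818 and 0.676 in SCR AMO and 0.765 and 0.699 in L1 AMO. For this distance the groups overlapped (exact permutation p = 1.00), with a difference of -0.0149 that was 0.0559 without SCR AMO replicate 1 and -0.0858 without SCR AMO replicate 2. For the distance between A and B bins, the spread between samples was therefore larger than the difference between groups.

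Among the autosomes chromosome 3 showed one of the smaller differences in compartment strength. Its strength in SCR AMO, 2.64 and 2.74, was also the lowest of the autosomes in each of these samples. Its strength changed by -24.3% in L1 AMO, a fall that was larger on 15 of the other autosomes and smaller on 3, with a range of -36.6% on chromosome 17 to -19.3% on chromosome 1 and a median of -27.2%. The rise of its A-B corner by 21.9% was exceeded on 14 autosomes. Its A-A corner changed by -10.8%, with larger falls on 10 autosomes and smaller ones on 8. The rise of its contacts of 2 to 10 Mb by 2.08 percentage points was exceeded on 4 autosomes. All chromosomes come from the same 4 samples, so these ranks are a description.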

How the data were processed

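Hi-C libraries of 4 samples (2 SCR AMO, 2 L1 AMO) were used, grouped by their labels. The 4 H3K9me3 ChIP-seq samples of the series were not analysed here. The authors mapped read pairs to mm9 and deposited the contacts of 500-kb bin pairs as raw counts, and the submitters' processing notes name HiC-Pro 2.7.1b. The mapping options are not given in the sources used here. The 2 matrices of each L1 AMO sample were added. Bin numbers were assigned to chromosomes by mm9 lengths, which was checked by the drop of contacts at 19 chromosome ends, to at most 0.119 of the level inside. A bin was dropped where any sample covered it below 0.1 of its chromosome's median. Iterative correction over the whole genome then balanced the remaining 5093 bins. The study's methods give the samples of a group as separate transfections.

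The test of each measure was an exact permutation test, two-sided. Counts of block pairs with at least 10 counts on average were tested with edgeR 4.0.16 (quasi-likelihood, TMM, Benjamini-Hochberg at 0.05 over all chromosomes), in R 4.3.3. The distance offset was the log of the summed mean count at each distance. Python 3.11.15, numpy 2.4.6, scipy 1.17.1, pandas 2.3.3 and matplotlib 3.10.9 were used. Measures and fits were tested on simulated data. Named regions were the 28 pairs among the 4 longest A and 4 longest B blocks (ties by position), the 3 largest called rises and falls relative to distance with groups that did not overlap, and the 3 blocks of 4 or more bins at each end of the differences in homotypic share. B7, B10 and the 9 bins that changed sign, and the blocks given for their inside values and contrasts, were named after their values were seen. The study's table of repeats served only to set B1-rich and L1-rich bins of chromosome 1. Gene density per block needs an mm9 annotation and was not computed. The mean contrast in contacts with chromosome 1 for each type was added after the data were seen. The chromosome, blocks and measures were chosen with earlier results of these data known. Alternatives were no balancing, balancing of chromosome 3 alone, other coverage limits, distances, corners, eigenvectors, bin sizes and count filters, leaving out each sample or one of the L1 AMO matrices, DESeq2 1.42.0, no TMM and the replicate number as a block.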

Additional observations from a re-analysis of the deposited data

How the results depend on the processing

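Of the 219 alternative values computed for the measures and counts of chromosome 3, 202 kept their direction and their side of the threshold, which for the measures was whether the groups overlapped. Those of compartment strength (-1.22 to -0.140), the A-A corner (-0.309 to -0.0984), the A-B corner (0.0491 to 0.138), the A homotypic share (-5.72 to -4.08 percentage points), the shares of 2 to 10 Mb, 10 to 40 Mb and beyond 40 Mb, and the mean changes of the named pairs did so under every alternative run. The share of contacts up to 2 Mb, which overlapped between the groups, differed by 0.0166 percentage points without balancing, by -1.44 with contacts inside one bin left out, by 1.16 with limits of 5, 20 and 60 Mb, and by -1.33 to 0.802 with one sample left out. The B-B corner differed by 0.0137 without balancing, by -0.00608 with chromosome 3 balanced alone and by -0.00053 in corners of 50% of bins, and the B homotypic share by -0.285 points without balancing, all with overlap. The contrast in contacts with chromosome 1 ran from -0.0858 to 0.0559 with one sample left out, an alternative added after the data were seen. DESeq2 called 228 block pairs scaled to library and 102 relative to distance. Leaving out one sample gave 219 to 574 and 107 to 368 calls, the lowest both without SCR AMO replicate 1, where a lone SCR AMO sample is assumed to vary like the L1 AMO group. Among single pairs, B2-B9 had a log2 change of -0.03 that became 0.0435 without balancing, 0.00466 with chromosome 3 balanced alone and 0.0214 as an observed/expected value. As observed/expected values A7-B20 and B9-A18 changed to 0.061 and 0.157, and A9-B20, with a mean log2 change of 0.0135, became 0.314 as an observed/expected value, -0.0228 with the second L1 AMO matrices alone, 0.120 without SCR AMO replicate 1, -0.0926 without SCR AMO replicate 2 and -0.000103 without L1 AMO replicate 2. The cause of these shifts was not tested. The replicate numbers only share a number across groups. With the number as a block, 592 block pairs were called scaled to library and 350 relative to distance. The mean paired differences of the measures equal those of the means by construction. Their agreement is counted among the 202 values above but was fixed in advance. Deviations of samples with one number correlated at 0.0636 over block pairs. Depth limits pairs of small blocks far apart, and the number of samples limits the measures.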
